A study of Mus musculus with 6 samples.

Results

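Ribosome biogenesis genes were followed in BFU-E (burst-forming units of the erythroid lineage, progenitors that precede red cell precursors) sorted from E14.5 fetal livers of 129/SvImJ mice. The 40 genes were listed by symbol for their part in transcribing and processing ribosomal RNA and in assembling the ribosomal subunits, and 39 of them were found among the 37620 Ensembl genes of the deposited tables. The symbol Noc2l matched no row, so its expression was not analysed here. The groups were cells given 100 nM dexamethasone (Dex, an agonist of the glucocorticoid receptor) and 10 µM GW7647 (an agonist of the nuclear receptor PPARα), cells given 100 nM Dex alone, and untreated cells, with 2 libraries each. All groups carried the same strain and sort, in which cells with lineage markers, Sca-1, CD16/32, CD41 or CD34 were removed and c-kit positive cells in the lowest 10% of CD71 were kept. Each group grew in a serum-free medium with SCF (100 ng/mL), IGF-1 (40 ng/mL) and Epo (2 U/mL), which act through Kit, the IGF1 receptor and the erythropoietin receptor. The labels give 12 h of treatment, while headers of 1 table carry 36 h, and untreated libraries have no time of their own. No group had GW7647 without Dex. The labels do not say that the 2 libraries of a group came from separate cultures, so the p-values measure the spread between these libraries, which may be technical.

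Ribosomes are built mainly in the nucleolus. RNA polymerase I makes the precursor of the large ribosomal RNAs, small nucleolar ribonucleoproteins (snoRNPs) modify it and help to cut it, and assembly factors fold it with ribosomal proteins into a small and a large subunit that mature in the cytoplasm. Erythroid precursors need many ribosomes to make hemoglobin, and inherited faults in ribosome production in people often show as anemia or other failure of blood formation. The transcription factor MYC is a known activator of many genes of this pathway.

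Promoter sequences of RefSeq (GRCm38.p6, 250 bases before to 50 bases after the annotated start) were found for 34 of the 40 members, Noc2l included. The 4 shown here belong to Ncl and Nop56, which fell after Dex, and to Utp20 and Heatr1, which rose. Capitals mark matches, on either strand, to the E-box CACGTG bound by MYC and MAX, to the ETS family motif CCGGAAG or to the GC box GGGCGG, and the matches shown do not overlap. They lie at chr1:86359406-86359705 (minus strand) for Ncl, chr2:130274162-130274461 (plus strand) for Nop56, chr10:88826765-88827064 (minus strand) for Utp20 and chr13:12395125-12395424 (plus strand) for Heatr1.
Ncl: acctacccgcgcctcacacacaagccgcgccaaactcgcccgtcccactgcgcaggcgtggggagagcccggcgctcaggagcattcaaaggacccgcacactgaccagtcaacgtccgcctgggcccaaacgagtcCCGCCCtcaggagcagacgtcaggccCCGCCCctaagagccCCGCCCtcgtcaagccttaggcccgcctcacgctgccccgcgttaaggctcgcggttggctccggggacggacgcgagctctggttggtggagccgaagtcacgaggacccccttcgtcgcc
Nop56: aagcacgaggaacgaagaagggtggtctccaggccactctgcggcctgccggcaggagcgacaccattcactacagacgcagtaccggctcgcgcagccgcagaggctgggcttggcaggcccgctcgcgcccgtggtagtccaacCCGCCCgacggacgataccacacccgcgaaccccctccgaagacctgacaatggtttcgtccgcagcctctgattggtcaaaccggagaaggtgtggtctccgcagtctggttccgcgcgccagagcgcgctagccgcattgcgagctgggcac
Utp20: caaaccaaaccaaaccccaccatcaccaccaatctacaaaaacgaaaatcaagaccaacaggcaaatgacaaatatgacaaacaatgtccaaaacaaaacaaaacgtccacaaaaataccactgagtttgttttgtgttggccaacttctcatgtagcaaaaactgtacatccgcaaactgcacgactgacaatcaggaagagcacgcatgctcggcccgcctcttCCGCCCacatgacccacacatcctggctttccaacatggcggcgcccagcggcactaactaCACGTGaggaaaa
Heatr1: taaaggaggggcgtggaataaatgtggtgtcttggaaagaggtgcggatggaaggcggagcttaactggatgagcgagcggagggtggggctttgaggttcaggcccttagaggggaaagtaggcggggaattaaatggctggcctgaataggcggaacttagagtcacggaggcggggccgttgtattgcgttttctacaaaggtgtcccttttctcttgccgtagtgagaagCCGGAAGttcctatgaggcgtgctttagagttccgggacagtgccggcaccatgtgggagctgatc

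The Ncl window held 3 GC boxes and the Nop56 window 1, and neither held an E-box or the ETS motif. The Utp20 window held 1 GC box and 1 E-box, which begins at base 38 when the start is base 1, and the Heatr1 window held the ETS motif. An E-box stood in at least 1 window of 7 of the 34 members (20.6%), against 8.09% of the 27025 genes with a window. The ETS motif stood in 12 members (35.3%, against 9.93% of all genes) and the GC box in 26 (76.5%, against 38.2%). The palindromic CGCG element was found in 0 members and in 0.525% of all genes. Of the 7 genes with an E-box, Utp20 and Ltv1 were called higher after Dex, Wdr43 and Mybbp1a were called lower, and Tsr1, Pes1 and Nop2 were not called. These matches describe the windows and were not tested against expression.

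Library totals ran from 35970286 to 54174801 counts, and every member had at least 2292 counts in each library. Over all genes the 2 Dex libraries stood furthest apart, with a chi-square per degree of freedom between them of 20.6, against 3.78 for the libraries of both drugs and 8.33 for untreated libraries, a measure that also grows with depth. Levels are normalized counts, that is counts brought to a common library size with edgeR's TMM factors (trimmed mean of M values). A member was called where the edgeR quasi-likelihood test gave an adjusted p under 0.05 over the 14125 genes tested, and each of the 39 members passed the filter on low counts. The labelled cell type had its defining erythroid markers (12 of 12 tested, summed level 776414 to 801772 with both drugs, 819361 to 890650 with Dex and 1883860 to 2090910 in untreated cells). Of these, 9 were lower and 1 higher after Dex. Megakaryocyte markers moved as well, with 9 of 10 lower after Dex (summed level 20225 to 22253 in Dex and 44527 to 47020 in untreated libraries) and 9 of 10 lower again with GW7647 (14735 to 14959). Granulocyte markers were lower for 9 of 11 after Dex (7156 to 7487 in Dex and 15372 to 16388 in untreated libraries) and for 9 of 11 with GW7647 (4425 to 4523). Mast cell and basophil markers summed to 5642 to 5749 with both drugs, 9765 to 10118 with Dex and 6164 to 6177 in untreated cells. Of the 10, 7 were tested, with 2 higher and 5 lower after Dex. Most of the sum with Dex was Hdc, at 8879 and 8487 normalized counts, against 1749 and 1748 in untreated cells. Tpsb2 was the other one higher. Cpa3, among the 5 lower, had 647 and 724 with Dex and 2857 and 2895 in untreated cells. Macrophage markers stood at 301 to 307 with both drugs, 360 to 390 with Dex and 413 to 422 in untreated cells, with C1qa at 0 throughout. Lymphoid markers summed to at most 28.1 in treated and 50.9 in untreated libraries. Hepatoblast markers summed to 158 to 177 with both drugs, 257 to 287 with Dex and 111 to 119 in untreated cells, with Serpina1a at 0. Of the 9, 2 were called higher after Dex, among them Apoa1, at 158 and 153 normalized counts with Dex and 9.78 and 4.63 in untreated cells. Endothelial and stromal markers summed to 883 to 903 with both drugs, 1195 to 1200 with Dex and 1082 to 1186 in untreated cells. Of the 9, 4 were tested, with 1 higher and 2 lower after Dex, so the sum hides opposite changes. Pdgfrb, the 1 higher, had 722 and 702 normalized counts with Dex and 182 and 260 in untreated cells. Pecam1, among the 2 lower, had 224 and 247 with Dex and 597 and 587 in untreated cells. The part of these cell types in the results below was not tested. In bulk RNA, fewer or more cells of a type cannot be told apart from changed RNA per cell, also of single genes.

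**Figure D1:**
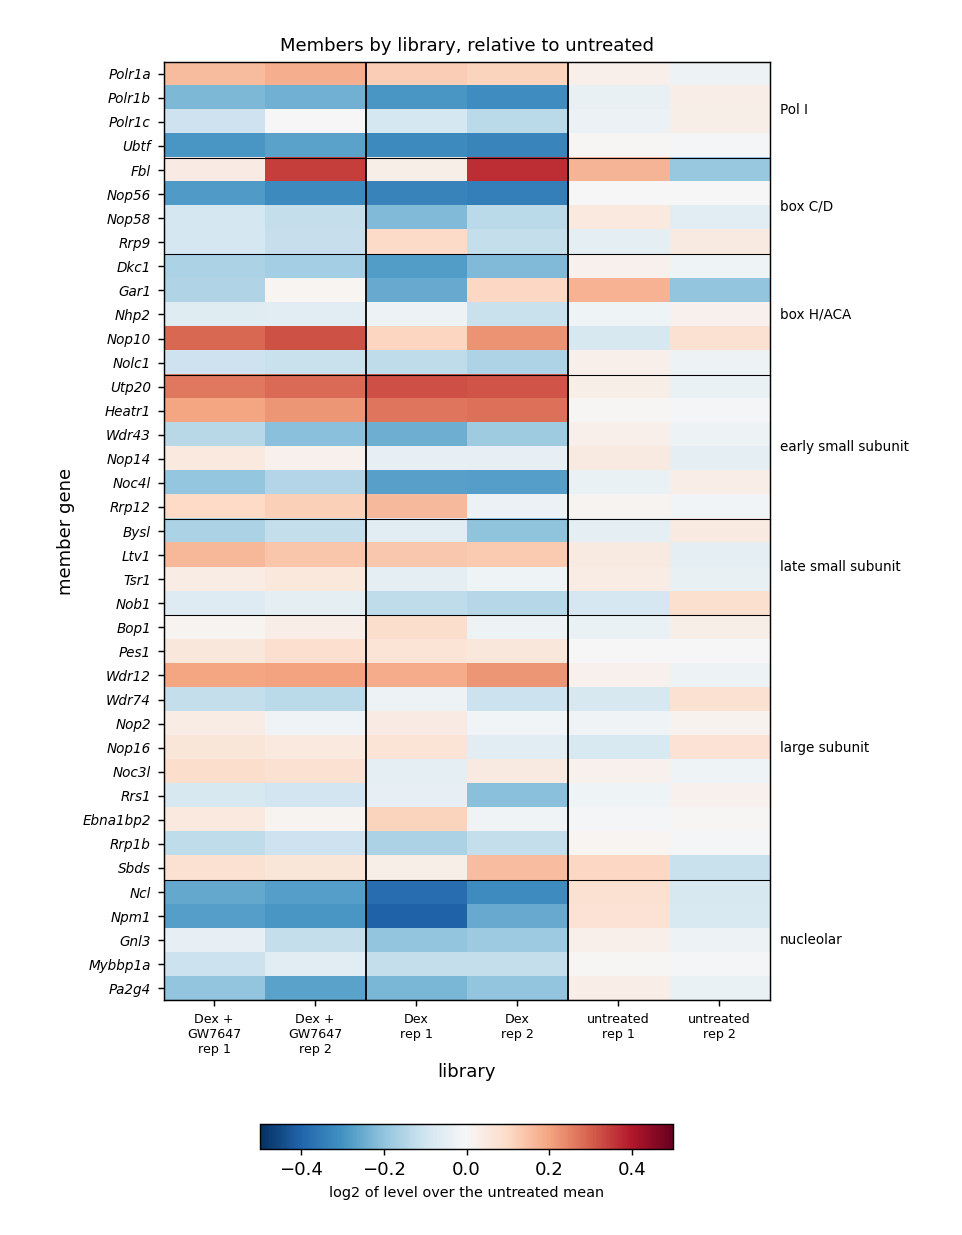
Level of each of the 39 members in each of the 6 libraries, as log2 of the normalized count over the mean of the untreated libraries (colour, from -0.5 in blue to 0.5 in red), with members in rows by role and libraries in columns. Ncl, Npm1, Nop56 and Ubtf were blue in the 4 treated libraries, Utp20, Heatr1 and Wdr12 were red there, and libraries of a group differed widely in shade for Fbl and Gar1.

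Per exon length, the members spanned a wide range in untreated cells, given here as RPKM (normalized reads per kilobase of exon). Polr1a stood lowest at 10.0 ± 0.235 RPKM, and Npm1 highest at 1044 ± 76.7 RPKM (SD, n = 2). Npm1 encodes nucleophosmin, a histone and ribosome chaperone of the nucleolus, and has many processed pseudogenes, so its counts depend on how the authors' counting treated shared reads. Below it came Ncl (292 ± 22.7), Pa2g4 (259 ± 8.09), Nhp2 (237 ± 4.96), Nop10 (140 ± 10.8) and Nop56 (130 ± 0.0193), all as mean RPKM ± SD. Of these neighbours Nop10 and Nop56 did not differ beyond their spread. Wdr12 (11.7 ± 0.271), Rrp1b (13.8 ± 0.118), Polr1b (15.2 ± 0.525), Fbl (16.6 ± 2.89) and Utp20 (16.6 ± 0.507) stood just above Polr1a in RPKM, and the last pair did not differ beyond their spread. Exon lengths were the union of all exons of a gene in a later annotation (GENCODE M21), so these levels and their order are approximate. The union was 10188 bases for Ncl and 2665 for Npm1. Before division by length, Ncl stood above Npm1 in untreated cells, with means of 128988 and 120723 normalized counts.

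The first comparison asks how Dex alone acts on the pathway. The 5 abundant or multifunctional nucleolar genes fell, by 21.4% for Ncl at most, and so did Ubtf and Polr1b of RNA polymerase I transcription. Of the snoRNP genes, Nop56, Nop58, Dkc1 and Nolc1 fell, Nop10 rose and 4 were not called. Small subunit genes were split, with Utp20 (up by 24.8%), Heatr1 and Ltv1 higher and Noc4l and Wdr43 lower. Wdr12 was higher and Rrp1b lower among large subunit factors, of which 9 of 11 were not called. Of 39 members, 14 were called lower (35.9%, against 26% of all genes tested), 5 higher (12.8%, against 25.5%) and 20 not called. Without either library of both drugs, 3 were called higher and 11 lower. Smaller shares of all genes were called in those fits as well. Together 48.7% of members were called, against 51.6% of all genes, a share near the background. The median log2 difference of Dex minus untreated was -0.07 over members and 0.01 over all genes tested. Differences of members ran from -0.35 to 0.32, with a median size of 0.13, against 0.27 for all genes. All genes tested include genes at far lower counts than any member, so these sizes and shares are not matched for level. The balance of directions rests on scaling. With library totals in place of TMM, the median of all genes moved to 0.14, that of members to 0.06, and 13 members were called higher (against 38.6% of all genes) and 7 lower (18.3%). Relative to the median of all genes, members stood at -0.08 under TMM, with 26 of 39 below it. Size factors of the DESeq type (RLE) and library totals gave the same values. That match is no check on scaling, because a change of scaling moves all genes by about the same amount. The libraries did not overlap, with Dex lower, for 19 members (48.7%, against 36.1% of all genes), and with Dex higher for 7 (17.9%, against 36.8%).

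**Figure D2:**
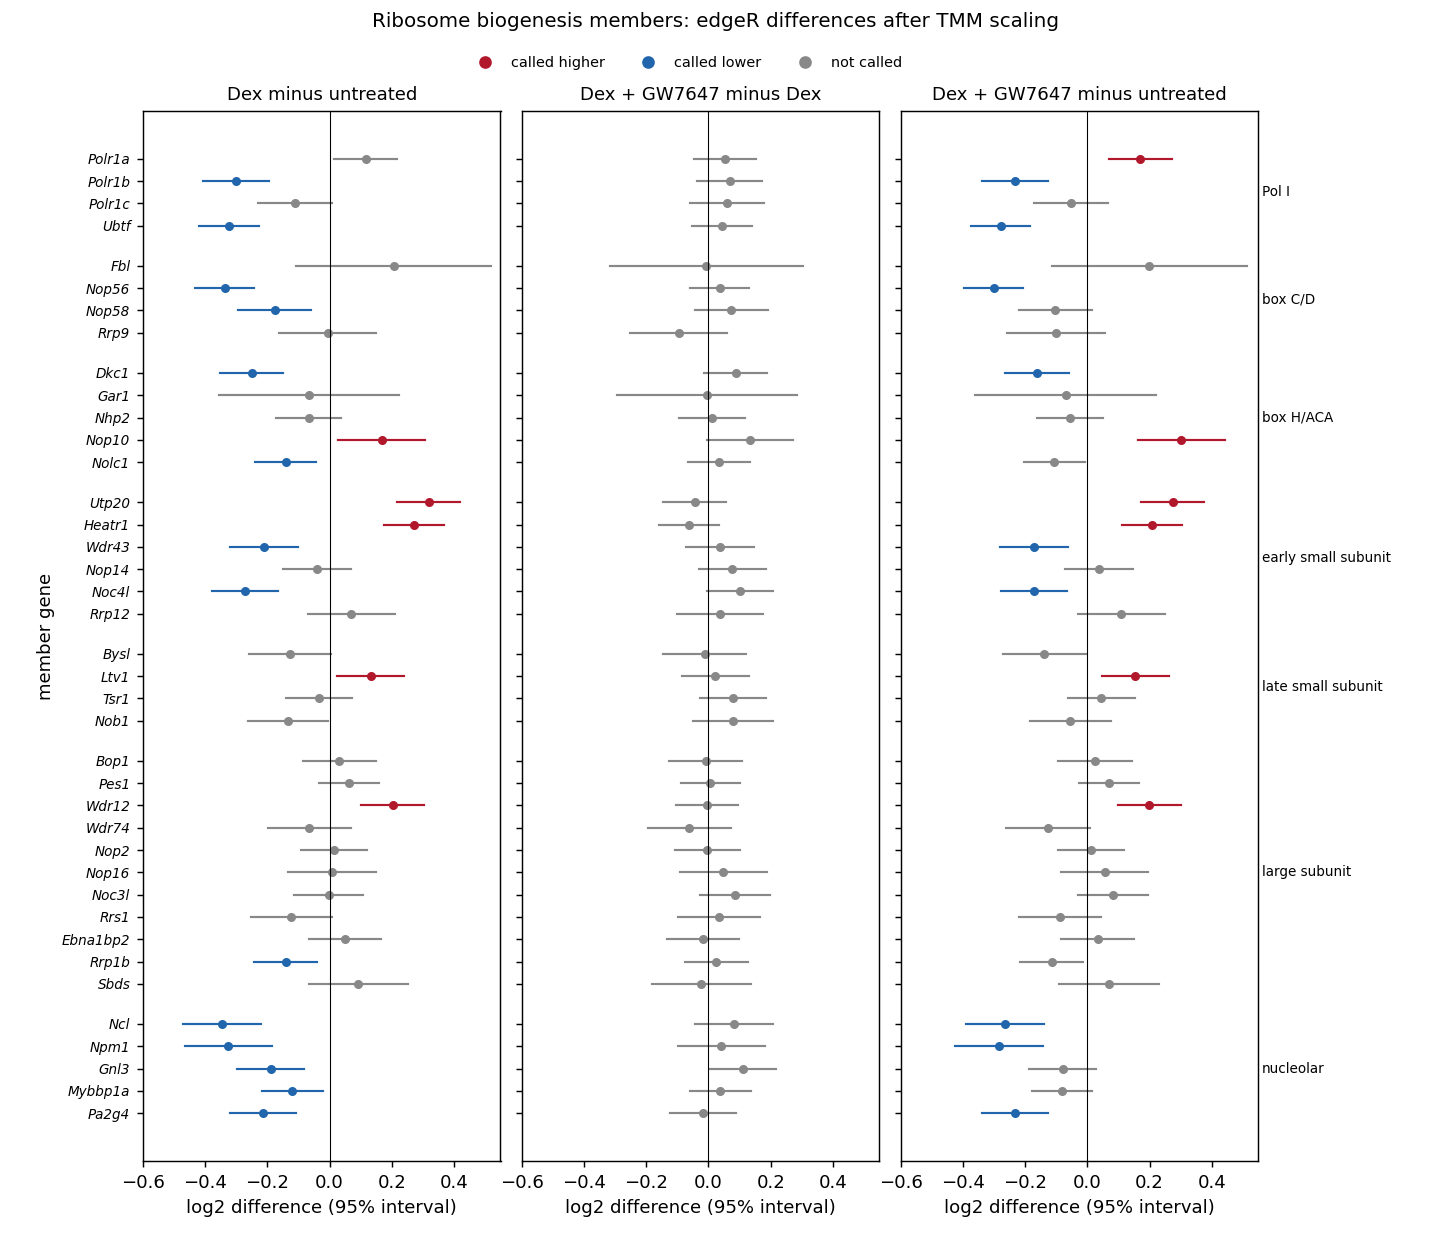
Log2 differences of the 39 members (points) with 95% intervals (lines) for Dex minus untreated, Dex plus GW7647 minus Dex, and Dex plus GW7647 minus untreated, on the TMM scale, coloured by call. After Dex 14 were called lower and 5 higher, while in the middle panel no member was called. The intervals of 38, 39 and 38 of the 39 members, from left to right, lay within 0.5 of 0.

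Among genes of RNA polymerase I transcription, 2 of 4 fell after Dex. Ubtf encodes UBF, the factor that opens ribosomal DNA and recruits the polymerase. It had 11038 and 10946 normalized counts with Dex, against 13802 and 13698 in untreated cells. The groups did not overlap, and the log2 difference was -0.32 ± 0.04 (SE, adjusted p = 0.000143). Polr1b, the second largest subunit of the polymerase, had 3137 and 3095 normalized counts with Dex, against 3743 and 3930 in untreated cells (log2 -0.30 ± 0.05, adjusted p = 0.000451). Both calls held in each of 13 alternatives. Polr1a, the largest subunit, lay the other way, at 5629 and 5583 normalized counts with Dex and 5254 and 5083 in untreated cells (log2 0.12 ± 0.05, adjusted p = 0.0537). Polr1a was therefore not called, though its groups did not overlap, and it passed with library totals (adjusted p = 0.00115), without a filter on low counts (0.0419) and in limma-trend (0.0458), and its adjusted p reached 0.233 elsewhere. Polr1c, a subunit shared with RNA polymerase III, was not called (log2 -0.11 ± 0.05).

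Of the box C/D snoRNP genes, which serve 2′-O-methylation of ribosomal RNA, Nop56 and Nop58 fell and Fbl and Rrp9 were not called. Nop56, a core scaffold of these particles, had 18428 and 18322 normalized counts with Dex, against 23209 and 23204 in untreated cells (log2 -0.34 ± 0.04, adjusted p = 0.000104). Its untreated libraries were nearly equal, and the call held in each of the 13 alternatives. Nop58, its partner, differed less (log2 -0.18 ± 0.05, adjusted p = 0.0175). Leaving out untreated replicate 1 (adjusted p = 0.133) or Dex replicate 1 (0.0788) ended its call, as did library totals. Fbl encodes fibrillarin, the methyltransferase of the particle. It had 3082 and 3900 normalized counts with Dex, against 3397 and 2650 in untreated cells, so the groups overlapped. Its difference had the widest interval of all members, from -0.11 to 0.52 on the log2 scale (adjusted p = 0.247). Fbl was called higher without Dex replicate 1 (adjusted p = 0.0404) and without a filter on low counts (0.00046). Rrp9, a protein of the U3 particle, had a log2 difference of -0.01 ± 0.07.

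Box H/ACA snoRNPs turn uridine into pseudouridine, and their members moved in both directions. Dkc1 encodes dyskerin, the pseudouridine synthase. It had 8671 and 9030 normalized counts with Dex, against 10694 and 10364 in untreated cells (log2 -0.25 ± 0.05, adjusted p = 0.00118), a call that held in each alternative. Nop10, a small core protein of the same particle, had 7291 and 7894 normalized counts with Dex, against 6391 and 7128 in untreated cells (log2 0.17 ± 0.06, adjusted p = 0.0459). That rise was lost when untreated replicate 1 (adjusted p = 0.300) or Dex replicate 2 (0.254) was left out, without either library of both drugs (0.0734 and 0.073), with RLE size factors (0.0569) and on the 4 libraries compared (0.0748), while its lowest adjusted p over the alternatives was 0.00204. Nolc1, a snoRNP chaperone of the nucleolus and Cajal bodies, was called lower (log2 -0.14 ± 0.04, adjusted p = 0.0224) but not without untreated replicate 1 (0.131), without either library of both drugs (0.0658 and 0.0673), without a filter on low counts (0.0619), on the 4 libraries compared (0.0645) or with library totals. Gar1 had 3254 and 4158 normalized counts with Dex, against 4366 and 3382 in untreated cells, so libraries of a group differed more than the groups did. Nhp2 was not called (log2 -0.07 ± 0.05).

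Early small subunit assembly held the largest rises of the module. Utp20, a very large scaffold protein of the small subunit processome, had 9219 and 9162 normalized counts with Dex, against 7526 and 7208 in untreated cells (log2 0.32 ± 0.05, adjusted p = 0.000229). Heatr1, the counterpart of yeast Utp10 in the same complex, had 8451 and 8490 normalized counts with Dex, against 7045 and 6992 in untreated cells (log2 0.27 ± 0.04, adjusted p = 0.000502). Both pairs of groups were well apart, and both calls held in each alternative. In the same role, Noc4l fell, with 4547 and 4531 normalized counts with Dex, against 5358 and 5608 in untreated cells (log2 -0.27 ± 0.05, adjusted p = 0.000867). Wdr43 was also called lower (log2 -0.21 ± 0.05, adjusted p = 0.00497), although with library totals it was not. Nop14 and Rrp12 were not called in this comparison, at log2 differences of -0.04 ± 0.05 and 0.07 ± 0.06, and Rrp12 was called higher without Dex replicate 2 (adjusted p = 0.0398).

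Of the 4 genes of late small subunit maturation, 1 was called higher. Ltv1, a factor that travels with the pre-40S particle to the cytoplasm, had 5436 and 5418 normalized counts with Dex, against 5102 and 4800 in untreated cells (log2 0.13 ± 0.05, adjusted p = 0.0427). The rise was lost in 9 of 13 alternatives, each single-library omission among them except that of untreated replicate 1, with adjusted p up to 0.254 without untreated replicate 2. Nob1, the nuclease that makes the last cut of 18S ribosomal RNA, had 4297 and 4254 normalized counts with Dex, against 4423 and 4959 in untreated cells (log2 -0.13 ± 0.06, adjusted p = 0.0788). Leaving out untreated replicate 1 gave a lower call (adjusted p = 0.0151). Bysl and Tsr1 were not called either, and Bysl passed as lower without Dex replicate 1 (adjusted p = 0.0177).

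Of the 11 large subunit factors measured, 9 were not called, 1 rose and 1 fell. Wdr12 is a partner of Pes1 and Bop1 in the PeBoW complex, which is needed to process the precursors of 28S and 5.8S ribosomal RNA. It had 6927 and 7088 normalized counts with Dex, against 6184 and 5985 in untreated cells (log2 0.20 ± 0.05, adjusted p = 0.00383), and the call held in each alternative. Bop1 had 6734 and 6225 normalized counts with Dex and 6201 and 6477 in untreated cells, an overlap with an interval of the log2 difference from -0.09 to 0.15. Pes1 stood at 9121 and 9046 with Dex and at 8684 and 8707 in untreated cells (log2 0.06 ± 0.04, adjusted p = 0.25). Rrp1b, a nucleolar protein of large subunit processing, had 4144 and 4259 normalized counts with Dex, against 4658 and 4602 in untreated cells. It was called lower (log2 -0.14 ± 0.05, adjusted p = 0.0259). Of the single-library omissions only that of Dex replicate 2 kept the call, and its adjusted p reached 0.107 without untreated replicate 1 and 0.855 with library totals. Sbds, the factor mutated in Shwachman-Diamond syndrome, which helps to release eIF6 from new large subunits, had 4087 and 4461 normalized counts with Dex, against 4302 and 3716 in untreated cells (log2 0.09 ± 0.07, adjusted p = 0.31). It was called higher without untreated replicate 1 (adjusted p = 0.0428) and with library totals (0.0218), and Rrs1 was called lower without Dex replicate 1 (0.00837). The other 5, Wdr74, Nop2, Nop16, Noc3l and Ebna1bp2, had log2 differences between -0.07 and 0.05. With library totals, Bop1, Pes1, Nop2, Noc3l and Ebna1bp2 were also called higher, with adjusted p from 0.00356 for Pes1 to 0.0497 for Noc3l. That setting called 38.6% of all genes higher.

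The 5 abundant or multifunctional nucleolar genes were each called lower. Ncl encodes nucleolin, a major RNA-binding protein of the nucleolus. It had 99191 and 103659 normalized counts with Dex, against 136094 and 121882 in untreated cells (log2 -0.35 ± 0.06, adjusted p = 0.000549). Npm1 had 91333 and 101364 with Dex, against 126994 and 114452 in untreated cells (log2 -0.33 ± 0.06, adjusted p = 0.00172). Both calls held in each alternative, with groups that did not overlap. Pa2g4, a growth-regulated protein that binds ribosomal precursors, fell by 0.21 (adjusted p = 0.00391), and Gnl3, the nucleolar GTPase nucleostemin, fell by 0.19 (0.00765). The Gnl3 call was lost without untreated replicate 1 (adjusted p = 0.0547). Mybbp1a, a nucleolar partner of MYB and a repressor of polymerase I, was called lower by 0.12 ± 0.04 (adjusted p = 0.042). Its call was lost in 9 of 13 alternatives, each single-library omission among them except that of Dex replicate 2, and its sign changed with library totals. With library totals Pa2g4 and Gnl3 were not called either.

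**Figure D3:**
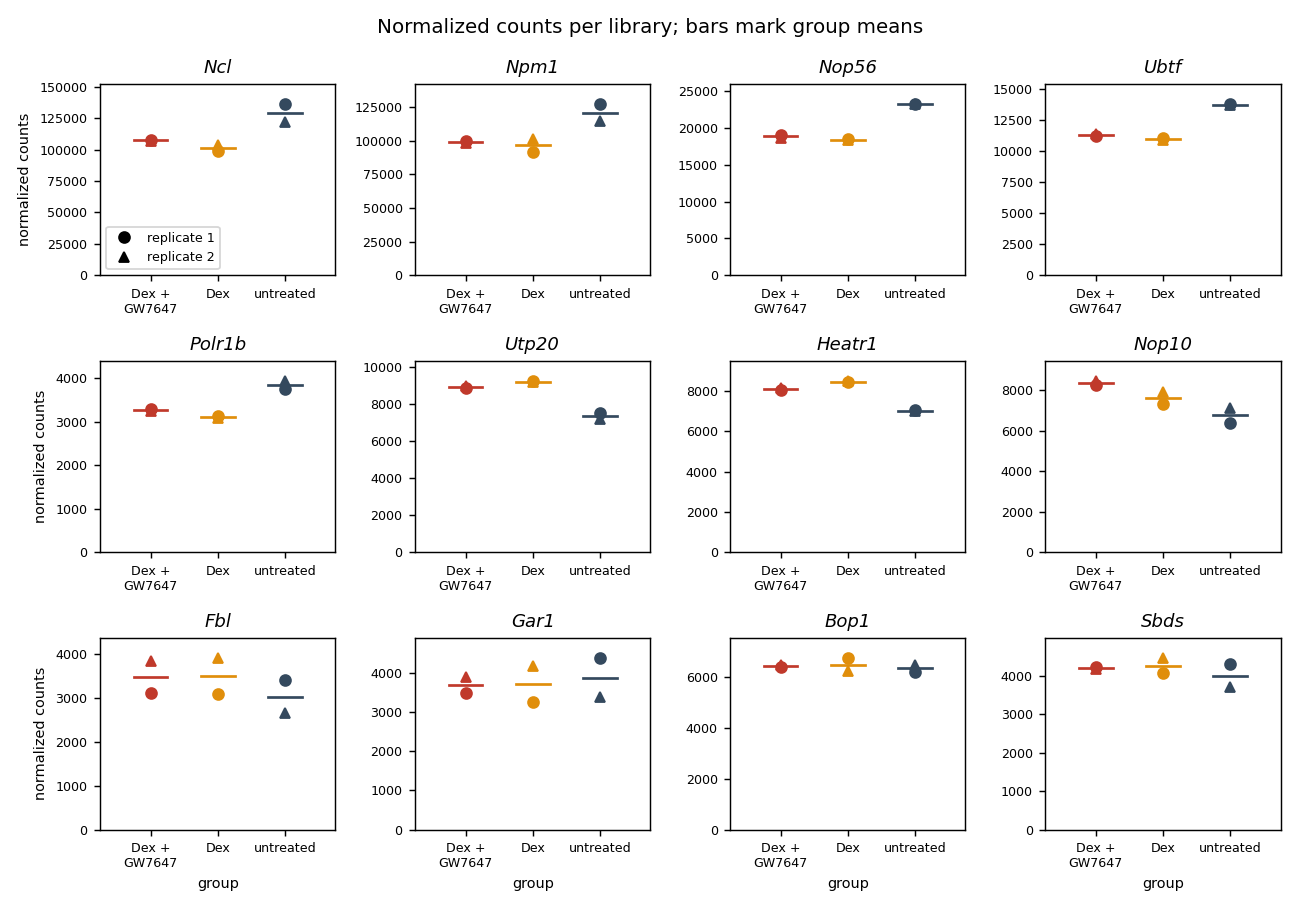
Normalized counts of 12 members in each library (circles for replicate 1, triangles for replicate 2) with group means as bars, for Dex plus GW7647, Dex and untreated cells, on axes from 0. Ncl, Npm1, Nop56, Ubtf and Polr1b stood lower in the treated libraries, Utp20 and Heatr1 higher, and the libraries of a group lay far apart for Fbl and Gar1.

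Ncl and Npm1 weigh heavily in the sum. They held 39.2% and 41.0% of the members' normalized counts with Dex, and 45.4% and 43.1% in untreated cells. The 39 members summed to 485664 and 499865 normalized counts with Dex, against 579193 and 547985 in untreated cells. Without Ncl and Npm1 the sums were 295139 and 294842 with Dex, against 316104 and 311651 in untreated cells. As a share of all counts, before any scaling, the members took 1.16% and 1.18% with Dex, and 1.26% and 1.19% in untreated cells, a narrower gap than on the TMM scale. Myc itself had 8031 and 8132 normalized counts with Dex, against 9554 and 10138 in untreated cells (log2 -0.29 ± 0.05, adjusted p = 0.00103).

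The second comparison asks what GW7647 adds to Dex. No member passed the threshold, in a comparison that rests on the 2 Dex libraries, which stood furthest apart. Without Dex replicate 1 or replicate 2 the count was also 0. Of 39 members, 0 were called higher (2.15% of all genes were) and 0 lower (7.58% of all genes). DESeq2 (1.66% of all genes higher and 6.66% lower), limma-trend (2.05% and 7.58%) and the authors' deposited table (0.815% and 3.61%) also called 0 members. With library totals, which called 1.83% of all genes higher and 7.94% lower, the count was again 0. Of all genes, 9.73% were called in either direction, while 1 member, Gnl3, had an unadjusted edgeR p under 0.05, against 24.3% of all genes. The smallest adjusted p was 0.191, for Gnl3, which had 10422 and 9868 normalized counts with both drugs, against 9345 and 9458 with Dex. Differences ran from -0.10 to 0.13, and the 95% intervals of all 39 members lay within 0.5 of 0 on the log2 scale. The widest, for Fbl, ran from -0.32 to 0.30. Intervals of 38 of 39 members lay within 0.5 of 0 in each comparison with untreated cells too. That bound therefore does not set this comparison apart. The median difference was 0.04 over members and 0.001 over all genes.

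The differences in this comparison were above 0 for 26 of 39 members, and 26 stood above the median of all genes (0.001). None was called, and all were taken against the same Dex libraries. The libraries with both drugs stood above those with Dex, with no overlap, for 17 members (43.6%, against 26.3% of all genes), and below them for 3 (7.69%, against 27.3%). Nop10 had 8239 and 8430 normalized counts with both drugs, against 7291 and 7894 with Dex (log2 0.13 ± 0.06, adjusted p = 0.218). Ncl had 107956 and 106642 with both drugs, against 99191 and 103659 with Dex (log2 0.08 ± 0.06, adjusted p = 0.419). Npm1 had 99774 and 98545 with both drugs, against 91333 and 101364 with Dex, so its groups overlapped (log2 0.04 ± 0.06, adjusted p = 0.745). Ubtf, with 11235 and 11430 against 11038 and 10946, and Polr1b, with 3285 and 3247 against 3137 and 3095, stood higher with both drugs than with Dex by 0.04 and 0.07 (adjusted p = 0.582 and 0.421). Polr1a had 5765 and 5869 normalized counts with both drugs, Bop1 6405 and 6485, Nob1 4486 and 4549, Sbds 4227 and 4184, and Fbl 3108 and 3845. Their adjusted p against Dex ran from 0.446 for Nob1 to 0.985 for Fbl. The members summed to 508558 and 505450 normalized counts with both drugs, against 485664 and 499865 with Dex.

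The third comparison sets both drugs against untreated cells and shares the untreated libraries with the first, so its calls are not independent of it. Of 39 members, 9 were called lower (23.1%, against 25.1% of all genes), 6 higher (15.4%, against 24.7%) and 24 not called. Together that was 38.5%, against 49.7% of all genes. Fewer members were called lower without replicate 1 or replicate 2 of both drugs, fits that leave 1 library in that group. The share of all genes called lower fell in these fits as well. The libraries did not overlap, with both drugs lower, for 19 members (48.7%, against 36.7% of all genes), and with both drugs higher for 11 (28.2%, against 39.5%). The 9 lower were also among the 14 lower after Dex alone, and the 5 higher after Dex alone were among the 6. With library totals 16 were called higher (against 38.8% of all genes) and 4 lower (19.2%). The authors' deposited table also called 6 higher (14% of its genes) and 9 lower (15.2%). The median log2 difference was -0.06 over members and 0.02 over all genes.

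Values with both drugs lay close to those with Dex for most of these genes. Nop56 had 19050 and 18617 normalized counts with both drugs, against 23209 and 23204 in untreated cells (log2 -0.30 ± 0.04, adjusted p = 0.00024). Ubtf differed by -0.28 ± 0.04 (adjusted p = 0.000413), Npm1 by -0.28 ± 0.06 (0.00404), Ncl by -0.27 ± 0.06 (0.00302) and Polr1b by -0.23 ± 0.05 (0.00246), each against untreated cells on the log2 scale. Calls of Nop56, Ubtf, Npm1 and Ncl held in each of the 13 alternatives, as did the rises of Nop10, Utp20, Heatr1 and Wdr12. Nop10 had 8239 and 8430 normalized counts with both drugs, against 6391 and 7128 in untreated cells (log2 0.30 ± 0.06, adjusted p = 0.00262). Utp20 had 8848 and 8971 with both drugs, against 7526 and 7208 in untreated cells (log2 0.27 ± 0.05, adjusted p = 0.000674), and Heatr1 had 8040 and 8173, against 7045 and 6992 (0.21 ± 0.04, 0.00283). Polr1a was called higher here (log2 0.17 ± 0.05, adjusted p = 0.0109).

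Several of these calls were lost when 1 library was left out, which left 1 library in a group. Without replicate 1 or 2 of both drugs, Polr1a differed by 0.18 ± 0.07 and 0.16 ± 0.07, against 0.17 ± 0.05 with all libraries. Dkc1 differed by -0.17 ± 0.07 and -0.15 ± 0.07, against -0.16 ± 0.05. Wdr43 differed by -0.14 ± 0.07 without replicate 2 of both drugs, against -0.17 ± 0.05. Polr1a was not called without replicate 1 (adjusted p = 0.0602) or replicate 2 (0.0981) of both drugs or without untreated replicate 2 (0.0735). Dkc1 had 9444 and 9364 normalized counts with both drugs, against 10694 and 10364 in untreated cells. Its call (log2 -0.16 ± 0.05, adjusted p = 0.014) was lost without replicate 1 (0.0902) or 2 (0.116) of both drugs or without untreated replicate 1 (0.0852). Noc4l was not called without replicate 1 (0.135) or 2 (0.0597) of both drugs or without untreated replicate 2 (0.0923). Wdr43, at 9484 and 9048 with both drugs and 10630 and 10270 in untreated cells (log2 -0.17 ± 0.05, adjusted p = 0.0144), was not called without replicate 2 of both drugs (0.162) or without untreated replicate 1 (0.0867), and Pa2g4 was not called without replicate 2 of both drugs (0.0537). Ltv1, at 5558 and 5456 with both drugs and 5102 and 4800 in untreated cells (log2 0.15 ± 0.05, adjusted p = 0.0239), was not called without replicate 1 (0.154) or 2 (0.0932) of both drugs or without untreated replicate 2 (0.164). Without Dex replicate 1 or 2, whose libraries share the estimate of spread, Bysl passed as lower (0.0339 and 0.0276), and so did Rrp1b (0.0483 and 0.0396). Nolc1 passed as lower without Dex replicate 2 (0.0415), and Wdr74 without untreated replicate 1 (0.0286).

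**Figure D4:**
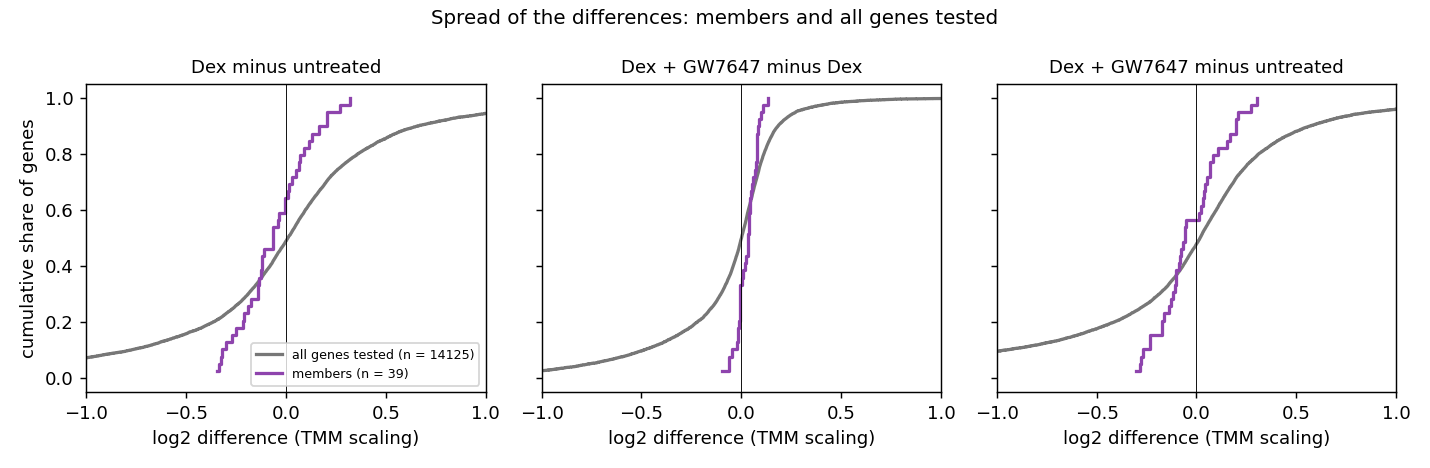
Cumulative share of genes (vertical axis) by log2 difference on the TMM scale (horizontal axis, shown from -1 to 1) for the 39 members and for all 14125 genes tested, in the 3 comparisons. The curve of the members is steeper than that of all genes, and 31, 36 and 35 of the 39 members, from left to right, lie between the lower and upper quartile of all genes. The curves are not matched for expression level.

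The wider pathway was read from 129 further genes, of which 126 were found and tested. After Dex 23 were called higher (18.3%) and 18 lower (14.3%), against 25.5% and 26% of all genes, and the median log2 difference was 0.02. With library totals the counts were 63 higher and 8 lower, where 38.6% of all genes were higher and 18.3% lower. Among 44 other genes of small subunit assembly, 10 were higher and 3 lower. Esf1, a nucleolar factor of 18S ribosomal RNA processing in yeast, had 5128 and 5248 normalized counts with Dex, against 4018 and 3801 in untreated cells (log2 0.41 ± 0.05, adjusted p = 6.59e-05). Rrp7a fell by 0.32 (adjusted p = 0.000486). Among 49 other large subunit genes, 7 were higher and 9 lower. Brix1, required for large subunit assembly in yeast, rose by 0.31 ± 0.05, and Nle1, the partner of the AAA ATPase MDN1, fell by 0.37 ± 0.06.

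Of 11 other polymerase I genes, 3 were higher and 2 lower. Znrd1, the small zinc ribbon subunit of the polymerase, had 193 and 182 normalized counts with Dex, against 467 and 478 in untreated cells. Its log2 difference of -1.33 ± 0.11 (adjusted p = 4.24e-06) exceeded in size that of every member, at a level well below theirs. Ttf1, the factor that ends polymerase I transcription, rose by 0.32 ± 0.06. Of 10 snoRNP assembly genes, 1 was higher and 2 lower, with Shq1 up by 0.17 and Znhit3 down by 0.39 on the log2 scale. Of 12 exosome genes, 2 were higher and 2 lower, with Exosc3 up by 0.23 and Exosc1 down by 0.24.

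With GW7647 added to Dex, 1 of the 126 was called higher (0.794%, against 2.15% of all genes) and 0 lower (against 7.58%). Urb2, a large subunit factor, had 3477 and 3370 normalized counts with both drugs, against 3011 and 3009 with Dex (log2 0.19 ± 0.05, adjusted p = 0.0369). It was called lower after Dex alone (log2 -0.16 ± 0.05, adjusted p = 0.0205). Both differences rest on the same Dex libraries, so their opposite signs are not independent. Without replicate 1 or replicate 2 of both drugs the call of Urb2 was lost, in fits that leave 1 library in that group. The shares of all genes called were smaller in those fits too. Against untreated cells, both drugs gave 24 higher (19.05%, against 24.7% of all genes) and 15 lower (11.9%, against 25.1%). Fewer were called without replicate 1 or 2 of both drugs or without untreated replicate 1, fits that leave 1 library in a group. Smaller shares of all genes were called there as well. Esf1 was higher by 0.47 ± 0.05, Tex10 by 0.26 ± 0.05, Coil by 0.25 ± 0.06 and Exosc9 by 0.17 ± 0.05, while Znrd1 was lower, at 152 and 177 normalized counts with both drugs (log2 -1.53 ± 0.11). Mphosph6, a cofactor of the exosome, was lower by 0.17 ± 0.06 (adjusted p = 0.0317).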

How the data were processed

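Per the labels, RNA purified with TRIzol went into Illumina TruSeq libraries of PolyA RNA. Per the submitters' processing notes, the authors used TopHat 1.4.1, HTSeq and DESeq, and the builds mm9 and NCBIM37 are named, whereas the strand setting is not given in the sources used here, so antisense overlaps are uncertain. The deposited whole-number counts per gene were used. The deposited p-value (adjusted) and the deposited ratio of group means, both the authors', were an alternative, and 8 deposited columns of normalized values were not used. Counts of both-drug libraries were identical in both tables. Symbols were joined by Ensembl identifier from GENCODE M21 for 32897 genes (87.4%).

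Genes passing filterByExpr (minimum count 10) were kept, 14125 in all, with 99.97% of counts. The edgeR 4.0.16 quasi-likelihood test in R 4.3.3 was fitted to the 6 libraries by group after TMM scaling, with Benjamini-Hochberg adjustment and a threshold of 0.05. Log2 differences are given ± SE, and intervals are at 95%. The fit was tested on simulated data in which 200 genes were changed. Those changes were larger than any member's difference, and far more genes were called in the data. The simulation therefore does not check calls of that size or share. Alternatives were DESeq2 1.42.0, limma-trend (limma 3.58.1, prior count 2), library totals, RLE size factors, no filter, the 4 libraries compared, the replicate block, and leaving out each library.

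The members and lists were chosen with earlier results of these data known. Members named with values were a fixed set of 9, the largest called rise and fall of each role and comparison above a mean of 50 normalized counts, those called against the majority, and any called with GW7647. Other pathway genes named were the largest called rise and fall of each role. Members whose call changed when 1 library was left out, Gar1, Pes1 and the remaining members were named after their values were seen, so that each was accounted for. The promoter motifs were chosen likewise. Replicate numbers are shared between groups, but nothing says that they mark a shared source.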

Additional observations from a re-analysis of the deposited data

How the results depend on the processing

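Scaling by library totals in place of TMM changed the counts of members called. In Dex against untreated, members called were 13 higher and 7 lower, the median log2 difference of members was 0.0638, other pathway genes called were 63 higher and 8 lower, and the ratio of summed member levels was 0.956. In both drugs against untreated the same values were 16 and 4, 0.0629, 68 and 5, and 0.977. Members called higher after Dex numbered 3 with RLE size factors (24.7% of all genes) and 3 on the 4 libraries compared (23.6%). With GW7647 added to Dex, all genes called numbered 1374, and 2085 without a filter on low counts. The single other pathway gene called there became 2 without the filter, and 0 with DESeq2, the replicate block or the authors' deposited table. The cause of these changes was not tested.

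Leaving out each library in turn gave 3 to 5 members higher and 10 to 14 lower for Dex against untreated, with 6067 to 7077 genes called, medians from -0.11 to -0.06, and 16 to 25 other pathway genes higher and 12 to 22 lower. For both drugs against untreated it gave 4 to 6 higher and 5 to 12 lower, 5285 to 7646 genes, medians from -0.06 to -0.03, and 13 to 29 and 7 to 17 other pathway genes. For both drugs against Dex it gave 0 members, 548 to 1729 genes (548 without replicate 1 and 618 without replicate 2 of both drugs), medians from 0.03 to 0.05, and 0 to 1 other pathway gene. Where an omission left 1 library in a group, that library was assumed to vary like the others.

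With the replicate block, members called were 4 higher and 13 lower after Dex (23.8% and 24.5% of all genes), 0 with GW7647 added (1.09% and 5.98%) and 6 and 9 for both drugs against untreated (22.4% and 23.7%). Same-numbered libraries had correlated deviations of -0.21 (Dex and untreated), 0.15 (both drugs and Dex) and -0.05 (both drugs and untreated), so the numbers were not taken as pairs. With crossed numbers in the untreated group, chosen after seeing the data, members called were 7 higher and 17 lower (28.3% and 28.7% of all genes), 0 (5.18% and 10.7%), and 7 and 12 (27.9% and 27.3%), and 2240 genes were called for GW7647 added to Dex. Every setting listed here called 0 members for GW7647 added to Dex.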
